A study of Mus musculus with 6 samples.

Results

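The MHC class I antigen presentation genes of mouse dendritic cell cultures are described here in 10 genes, out of 57132 genes in the deposited table. They were taken by symbol: the heavy chains H2-K1 and H2-D1, the light chain B2m, the peptide transporter genes Tap1 and Tap2, tapasin (Tapbp), the immunoproteasome subunits Psmb8, Psmb9 and Psmb10, and the transactivator Nlrc5. All 10 had enough counts to be among the 10554 genes tested. Messenger RNA was sequenced (mRNA-seq) from cultures labelled as dendritic cells, the immune cells that start T cell responses. The cultures were derived from bone marrow with the cytokine GM-CSF. Marrow of female C57BL/6 mice, 6 to 8 weeks old, was cultured for 5 days in medium with dialyzed serum and 15 ng/mL GM-CSF, with fresh medium on days 2 and 4. The labels name no genetic change, and the groups differed in queuine, which was left out (0Q) or added at 100 nM (100Q), with 3 libraries in each group. Whether the cultures of a group were from separate animals is not given in the labels, and p-values then reflect only the spread among these libraries, some of which may be technical.

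Class I molecules show peptides from inside the cell to CD8 T cells. The proteasome cuts cytosolic proteins, the TAP1 and TAP2 proteins carry the peptides into the endoplasmic reticulum, and tapasin holds empty class I molecules at the transporter until a peptide fits. Each finished molecule joins a heavy chain to beta-2-microglobulin, and dendritic cells use it to start CD8 T cell responses. Queuine is a dietary base that is built into queuosine, a modification in the anticodons of the tRNAs for asparagine, aspartate, histidine and tyrosine, which read codons ending in U or C after an A (NAU and NAC). The libraries measured mRNA only, and neither class I protein nor translation was measured.

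Several of these genes are alike enough in sequence for short reads to fit more than one of them, and the closest stretches are printed because they bear on how far the values of each gene can be separated. The coding sequences of H2-K1 and H2-D1 were identical at 92.0% of 1074 aligned bases. Their longest shared run was 91 bases, at coding bases 738 to 828 of H2-K1 and 747 to 837 of H2-D1 counted from the start codon, in the part that encodes the alpha-3 domain. Capitals mark the shared run and the 12 bases on either side are in lower case.
H2-K1: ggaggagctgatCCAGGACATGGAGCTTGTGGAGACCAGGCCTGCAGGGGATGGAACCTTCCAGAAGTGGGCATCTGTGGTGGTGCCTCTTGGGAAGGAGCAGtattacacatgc
H2-D1: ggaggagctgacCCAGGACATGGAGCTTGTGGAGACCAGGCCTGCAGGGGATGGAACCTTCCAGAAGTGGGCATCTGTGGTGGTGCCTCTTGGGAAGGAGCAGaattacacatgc
Of the 50-base windows in the annotated H2-K1 transcript, 138 of 1570 (8.79%) also occurred in transcripts of other genes, most often H2-D1. For H2-D1 the count was 294 of 2068 (14.2%), most often H2-Q1. The authors' quantification divides such reads by estimation, and the counts of H2-K1 were not whole in 5 of 6 libraries and those of H2-D1 in 6 of 6. This was not particular to the heavy chains, since B2m and Tapbp also had counts that were not whole in 5 of 6 libraries, Psmb8 in 2 and Psmb9 in 1. By the shared sequence the split between the heavy chains is uncertain.

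Tap1 and Tap2 encode the paired subunits of the transporter and were identical at 65.8% of 2006 aligned coding bases. One stretch of 74 bases was shared without a difference, at coding bases 1498 to 1571 of Tap1 and 1462 to 1535 of Tap2. It holds the Walker A loop of the nucleotide-binding domain, which grips ATP. The shared run is again in capitals.
Tap1: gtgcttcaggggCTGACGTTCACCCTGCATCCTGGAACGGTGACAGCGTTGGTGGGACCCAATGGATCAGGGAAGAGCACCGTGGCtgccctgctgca
Tap2: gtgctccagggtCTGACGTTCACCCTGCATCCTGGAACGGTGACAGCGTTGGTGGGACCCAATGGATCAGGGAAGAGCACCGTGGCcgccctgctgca
Only 25 windows of 50 bases were common to these genes, 0.818% of those in the Tap1 transcript and 0.637% of those in Tap2, and every count of both genes was whole. No window of B2m, Psmb8, Psmb9, Psmb10 or Nlrc5 occurred in another gene, and for Tapbp 85 of 2929 (2.90%) did.

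On the GRCm39 build 7 of the 10 genes lie on chromosome 17, in the MHC. Tap1 (chr17:34405996-34416199, plus strand) and Psmb9 (chr17:34400960-34406738, minus strand) lie head to head and share 743 exonic bases on opposite strands, which is 12.4% of the Tap1 exons and 19.6% of the Psmb9 exons. Antisense transcripts overlap 26.8% of the H2-K1 exons (Gm53999), 24.2% of the H2-D1 exons (5430410E06Rik) and 25.6% of the Tapbp exons (Gm19412). Smaller antisense overlaps include 14.6% of the Psmb8 exons (Gm20496) and 11.2% of the Tap2 exons (Gm15821). Zbtb22, on the same strand, overlaps 20.9% of the Tapbp exons. The strandedness of the libraries is not given in the sources used here, so reads in these overlaps cannot be assigned with certainty.

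Counts per library were 3675918 to 6755367 in 0Q and 4484785 to 19386533 in 100Q, where replicate 3 was the deepest. All 12 marker genes of the labelled dendritic cells were detected. No neutrophil, macrophage, mast cell, eosinophil, B cell or erythroid marker was at 0 in all 6 libraries either. Detection alone therefore does not identify the cell type. In 0Q and in 100Q Itgax (CD11c) averaged 98.6 and 140.2 CPM (counts relative to the scaled total of the library). The class II gene H2-Aa averaged 576.7 and 580.3 CPM. Others were lower: Cd74 averaged 21.3 and 26.2 CPM, Flt3 1.12 and 3.33 CPM, Zbtb46 1.17 and 2.46 CPM, and Ciita 2.30 and 5.62 CPM. Of the 12, 4 lay wholly above 0Q in 100Q, namely Itgax, Cd74, Irf4 and Ciita (4.41% of all tested genes did). Ciita had 6, 37 and 2 counts in 0Q, against 29, 26 and 111 in 100Q. It passed the low-count filter given below with the help of 100Q, so its separation is a description only. The costimulator Cd86 was the 1 wholly below, at 18.3 and 9.51 CPM (3.84% of all tested genes were). The 12 markers summed to 1061 to 1229 CPM in 0Q, against 1090 to 1242 CPM in 100Q. Neutrophil and precursor markers summed to 17850 to 20840 CPM in 0Q, against 14830 to 18040 CPM in 100Q, and all 10 had estimates below 0 in 100Q, with 4 of 10 wholly below 0Q (3.84% of all tested genes were). Mast cell and basophil markers summed to 448.9 to 501.7 CPM in 0Q and 344.2 to 442.2 CPM in 100Q, without overlap. Taken singly, all 6 of these genes overlapped between the groups, with 5 estimates below 0 and 1 above. Macrophage and monocyte markers summed to 1661 to 2051 CPM in 0Q, against 1561 to 1864 CPM in 100Q. Eosinophil markers summed to 1320 to 1601 CPM in 0Q, against 1198 to 1613 CPM in 100Q. These ranges overlapped between the groups, as did those of B cell and erythroid markers. Of 8 T and NK cell markers 7 averaged under 1 CPM, and Cd3e was at 0 in all 6 libraries. The neutrophil sum exceeded the dendritic sum in both groups, so the values below come from cultures with abundant neutrophil transcripts. Sums over different genes do not give shares of cells. In a bulk culture fewer cells of a type and less RNA per cell cannot be told apart. The part of these markers in the values below was not tested.

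For no class I gene did the difference between cultures with and without queuine pass the test. The quasi-likelihood test of edgeR over all 10554 genes gave an adjusted p under 0.05 for 0 of them (0%), and all 10 class I genes had an adjusted p of 0.999. Without adjustment 309 genes had a p under 0.05, and DESeq2 and limma-voom also called 0 genes after adjustment. The estimates of the 10 genes were above 0 for 6 and below 0 for 4, with a median of 0.02 on the log2 scale, and over all tested genes 5277 were above and 5277 below. At an unadjusted p under 0.05, 1 of the 10 (Tap1) was higher in 100Q, against a background of 1.77% of all genes, and 0 were lower, against 1.16%. The 3 libraries of 100Q lay wholly above those of 0Q for 2 of the 10 (Tap1 and Nlrc5, background 4.41%) and wholly below for 1 (Psmb8, background 3.84%). To be tested a gene needed 3 libraries at 1.82 CPM or more on library totals, which Tap1 reached in 2 libraries of 0Q and 3 of 100Q and Nlrc5 in 1 and 3. Both therefore passed this filter with the help of the group in which they were higher, and their separation is given as a description only.

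**Figure D1:**
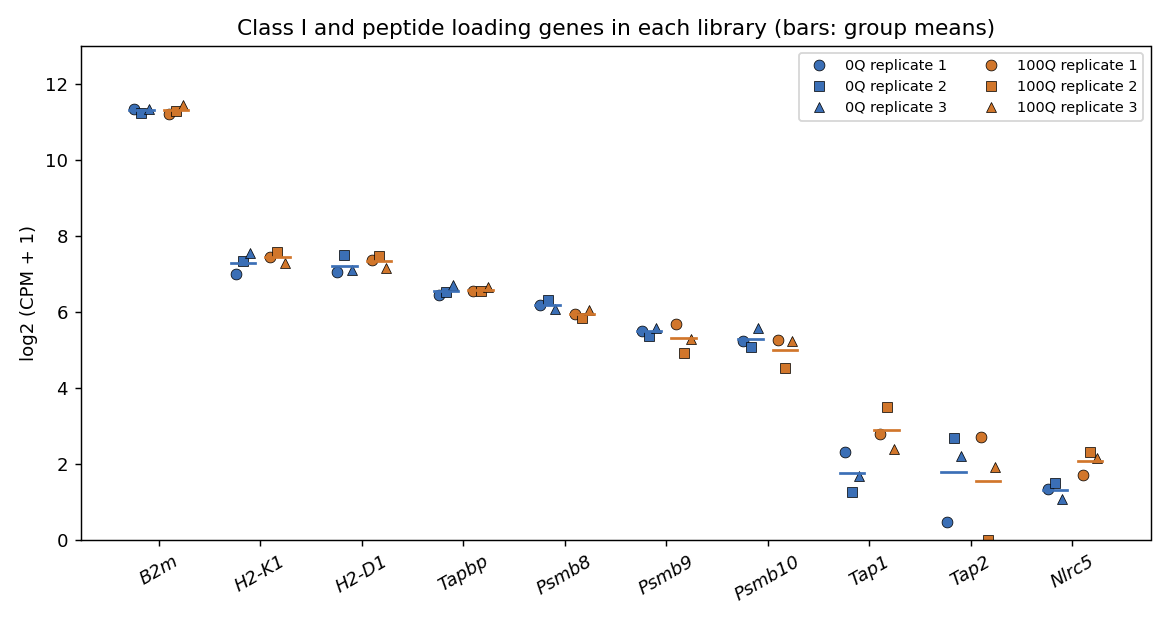
The level of each gene in each library as log2 of CPM plus 1 (vertical axis), with 0Q in blue, 100Q in orange, marker shapes for replicate numbers and bars for group means. B2m lies between 2374 and 2784 CPM, the heavy chains between 126.5 and 189.8 CPM, and Tap1, Tap2 and Nlrc5 under 11 CPM, where libraries of one group spread most.

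B2m (ENSMUSG00000060802, chr2:121977957-121983594), the light chain of class I molecules, was the most abundant of the 10. It had 2589, 2399 and 2607 CPM in 0Q replicates 1, 2 and 3 and 2374, 2483 and 2784 CPM in 100Q. The groups overlapped, with both the lowest and the highest library in 100Q. The mean was 2532 ± 114.8 CPM without and 2547 ± 212.4 CPM with queuine (SD, n = 3 each), and the log2 fold change was 0.01 (SE 0.10, 95% interval -0.20 to 0.22). B2m was thus the most closely bounded of the class I genes.

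The classical heavy chains bind the peptide. H2-K1 (ENSMUSG00000061232, chr17:34214987-34219321) had 126.5, 161.5 and 187.2 CPM in 0Q, against 174.1, 189.8 and 155.6 CPM in 100Q. The range of 0Q enclosed all but 1 library of 100Q. The log2 fold change was 0.13 (SE 0.16, 95% interval -0.21 to 0.47). H2-D1 (ENSMUSG00000073411, chr17:35481691-35486475) had 130.5, 180.9 and 136.1 CPM in 0Q, against 163.3, 176.5 and 141.4 CPM in 100Q, and all 3 libraries of 100Q fell within the range of 0Q. Its log2 fold change was 0.10 (SE 0.16, 95% interval -0.24 to 0.44). For both heavy chains 0Q replicate 1 was the lowest library, and without it the log2 fold changes were -0.01 for H2-K1 and 0.01 for H2-D1. In that library the deviation of genes from their mean also had a rank correlation of -0.14 with exon length across genes, against -0.04 to 0.09 in the other 5. With each library's length trend removed, the log2 fold changes were 0.14 for H2-K1 and 0.11 for H2-D1.

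The loading complex showed a well measured chaperone beside a sparsely counted transporter. Tapbp (ENSMUSG00000024308, chr17:34134873-34148267), the tapasin gene, had 86.5, 91.5 and 102.8 CPM in 0Q, against 93.3, 93.5 and 99.1 CPM in 100Q. The libraries of 100Q lay inside the range of 0Q, and the log2 fold change was 0.03 (SE 0.16, 95% interval -0.32 to 0.38).

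Tap1 (ENSMUSG00000037321) had 3.97, 1.41 and 2.22 CPM in 0Q, against 5.89, 10.3 and 4.28 CPM in 100Q. Every 100Q library was above every 0Q library, with the nearest pair at 3.97 and 4.28 CPM. These values rest on 21, 10 and 8 counts in 0Q and 31, 49 and 81 in 100Q. The log2 fold change was 1.42 (SE 0.64, 95% interval 0.08 to 2.76), a 2.67-fold higher estimate whose interval ran from 1.06-fold to 6.75-fold. Tap1 was among the genes with an unadjusted p under 0.05, at rank 239 by p, and its edgeR adjusted p was 0.999. With 1 library left out the estimate ranged from 0.99 (without 100Q replicate 2, the highest library) to 1.92 (without 0Q replicate 1), and by limma-voom 0 of the 10 genes had an unadjusted p under 0.05.

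Tap2 (ENSMUSG00000024339, chr17:34422501-34435829), the partner subunit of the transporter, had 0.378, 5.36 and 3.61 CPM in 0Q, against 5.51, 0 and 2.75 CPM in 100Q. High and low libraries occurred in both groups, and the counts ran from 0 in 100Q replicate 2 to 52 in the deepest library. A count of 0 in 100Q replicate 2 allows up to 0.632 CPM, taking 3 counts as the limit, which covers counting error only. The log2 fold change was -0.18 with a 95% interval from -2.34 to 1.99, so a difference of several fold in either direction was not detectable at this depth. Single libraries turned its sign: it was -1.05 when 100Q replicate 1 was left out, 0.52 when 0Q replicate 2 was left out and 0.37 when 100Q replicate 2 was. The library with the highest Tap1 value was the one with no Tap2 count. The library with the lowest Tap1 value, 0Q replicate 2, had the second highest Tap2 value. In 100Q replicate 1 both were high, with Tap1 at 5.89 CPM and the highest Tap2 value, 5.51 CPM. A relation between the transporter genes was not tested.

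The immunoproteasome subunits had estimates below 0, and none passed the test. They replace the 3 catalytic subunits of the constitutive proteasome and change the cuts that it makes. Psmb8 (ENSMUSG00000024338, chr17:34416690-34420428), which takes the place of Psmb5, had 71.95, 78.5 and 66.4 CPM in 0Q, against 60.6, 55.8 and 65.6 CPM in 100Q. Each 100Q library was below each 0Q library, by 0.81 CPM or more. The log2 fold change was -0.25 (SE 0.19, 95% interval -0.64 to 0.14, edgeR adjusted p = 0.999). Neutrophil markers had estimates below 0 in the same comparison, with summed ranges that overlapped as given above, and their part in this value was not tested.

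Psmb9 (ENSMUSG00000096727), which takes the place of Psmb6, had 44.6, 40.05 and 46.95 CPM in 0Q, against 50.8, 29.3 and 38.1 CPM in 100Q, so that 100Q held both the highest and the lowest value. Its log2 fold change was -0.15 (SE 0.24, 95% interval -0.66 to 0.36). Psmb10 (ENSMUSG00000031897, chr8:106662362-106665077), which takes the place of Psmb7, had 36.5, 32.7 and 46.4 CPM in 0Q, against 37.3, 21.9 and 36.6 CPM in 100Q, and the groups overlapped. Its log2 fold change was -0.26 (SE 0.27, 95% interval -0.82 to 0.30). For Psmb9 and Psmb10 the lowest library was 100Q replicate 2, and without it the values were 0.01 and -0.06.

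A ratio of each immunosubunit to its constitutive counterpart within a library does not depend on how libraries are scaled to each other. For Psmb10 to Psmb7 the counts stood at 0.320, 0.297 and 0.349 in 0Q and 0.272, 0.185 and 0.271 in 100Q. All 3 ratios of 100Q were below those of 0Q, and the mean log2 ratio was -1.64 ± 0.12 without queuine and -2.06 ± 0.32 with it (SD, n = 3 each). The difference of -0.43 had an exact two-sided permutation p of 0.1, the smallest that 3 against 3 libraries allow, and 0.3 after Benjamini-Hochberg adjustment over the 3 ratios. Psmb7 itself had 119 ± 12.3 CPM in 0Q, against 130.1 ± 10.3 CPM in 100Q.

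The other ratios overlapped between the groups. Psmb8 to Psmb5 was 0.810, 1.24 and 0.831 in 0Q and 0.720, 0.789 and 0.961 in 100Q, a log2 difference of -0.20 (exact two-sided permutation p = 0.5, adjusted 0.5). Psmb9 to Psmb6 was 0.0425, 0.0458 and 0.0450 in 0Q and 0.0461, 0.0326 and 0.0387 in 100Q, a log2 difference of -0.20 (exact two-sided permutation p = 0.4, adjusted 0.5). The constitutive partners differed little: Psmb5 had 77.4 ± 12.9 and 74.4 ± 8.58 CPM, and Psmb6 had 989 ± 99.8 and 994.5 ± 102.5 CPM.

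**Figure D2:**
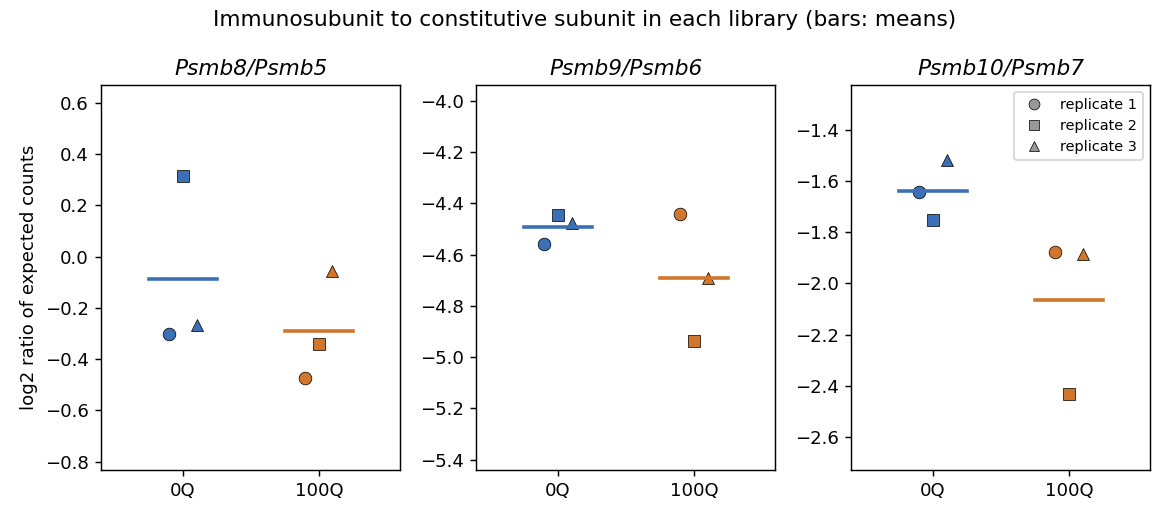
The log2 ratio of expected counts of each immunosubunit to the constitutive subunit it replaces (vertical axis, each panel spanning the same length) in the 3 libraries of 0Q (blue) and 100Q (orange), with bars for means. The groups are apart for Psmb10 to Psmb7, where means are -1.64 and -2.06, and overlap for the other pairs.

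Nlrc5 (ENSMUSG00000074151, chr8:95160984-95253900) encodes the transactivator that drives transcription of class I genes. It had 1.51, 1.83 and 1.11 CPM in 0Q, against 2.28, 4.00 and 3.49 CPM in 100Q. All 3 libraries of 100Q were above those of 0Q, on 8, 13 and 4 counts against 12, 19 and 66. Means were 1.48 ± 0.36 and 3.26 ± 0.88 CPM (SD, n = 3 each), and the log2 fold change was 1.11 (SE 0.80, 95% interval -0.58 to 2.80, edgeR adjusted p = 0.999). Tap1 and Nlrc5, the genes whose estimates were over 1 on the log2 scale, were thus also among the 3 least abundant of the 10.

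Over all tested genes the median width of the intervals followed abundance. Median half-widths on the log2 scale were 1.36 below 10 CPM (4298 tested genes), 0.65 from 10 to 100 CPM (4928 genes), 0.31 from there to 1000 CPM (1175 genes) and 0.23 in the 153 most abundant genes. For the 7 class I genes above 10 CPM, every estimate lay between -0.26 and 0.13.

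**Figure D3:**
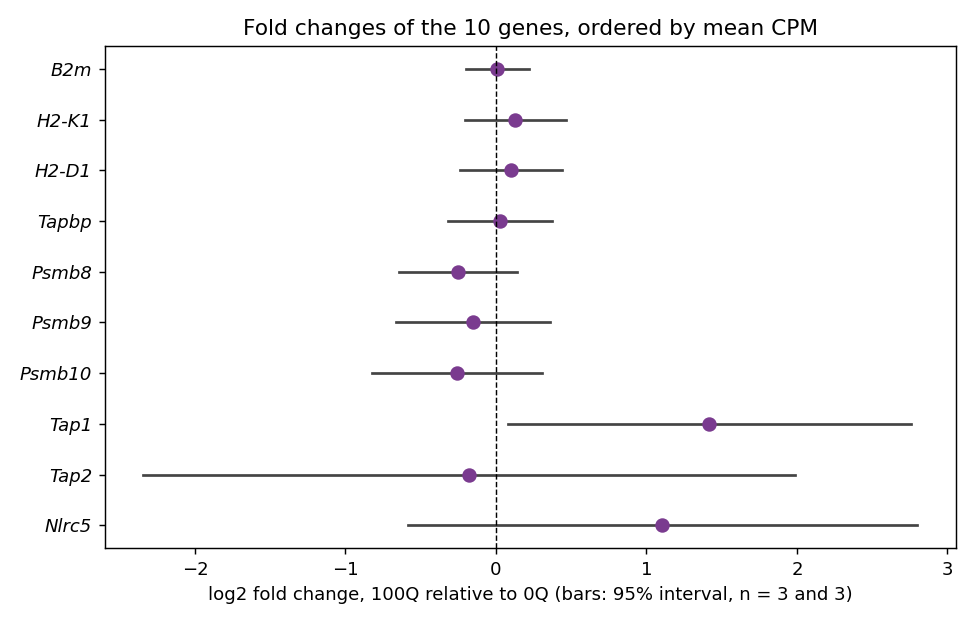
Log2 fold change of 100Q relative to 0Q (horizontal axis) for the 10 genes in order of mean CPM, with points for edgeR estimates and lines for 95% intervals from 3 and 3 libraries. Intervals are narrow for B2m (-0.20 to 0.22) and wide for Tap2 (-2.34 to 1.99), and only that of Tap1 does not reach 0 before adjustment for the number of genes.

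Levels of different genes were compared over all 6 libraries as TPM, computed here by dividing counts by exon length and scaling each library to the same total. B2m stood at 2724 ± 132.5 TPM, H2-K1 at 118.2 ± 20.1 and H2-D1 at 117.7 ± 22.1 (SD, n = 6). Within a library H2-K1 was 0.839 to 1.29 times H2-D1 by exon length and 0.895 to 1.38 times by coding length. By the longest transcript it was 1.02 to 1.57 times, above H2-D1 in all 6 libraries, so the order of the heavy chains depended on the length used. Per length, B2m was 9.94 to 14.8 times the sum of H2-K1 and H2-D1 in a library. That ratio was 6.64 to 9.90 with the longest transcript as the length and 20.1 to 29.9 with the coding length, and in every library and by each length the light chain was the more abundant.

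Tapbp (48.5 ± 3.66), Psmb10 (45.8 ± 9.29) and Psmb8 (44.0 ± 5.64) came next in TPM and lay within each other's spread, with Psmb9 below them at 24.7 ± 4.22. The order of these 4 genes depended on the length used, and Psmb10 was the lowest of them by coding length. Tap1 (1.78 ± 1.28), Tap2 (1.41 ± 1.17) and Nlrc5 (0.64 ± 0.32) were the lowest by each of the 3 lengths. Tap1 was above Nlrc5 in all 6 libraries by each length, whereas Tap2 was above Nlrc5 in 4 and under it in 2. Psmb9 was 4.48 to 44.9 times as abundant as its head-to-head neighbour Tap1 over the 6 libraries by exon length, and 9.17 to 91.8 times by coding length. This ratio rests on the few counts of Tap1, and reads in the exonic bases that both genes share cannot be assigned with certainty. Psmb6 stood at 1020 ± 73.2 TPM, and Psmb9 was 0.0188 to 0.0266 of this counterpart by exon length and 0.0361 to 0.0510 by coding length. Psmb8 was 0.378 to 0.652 of Psmb5 by exon length and 0.689 to 1.19 by coding length, and Psmb10 was 0.645 to 1.21 and 0.183 to 0.345 of Psmb7. The order of these last ratios thus depended on the length, while that of Psmb9 to Psmb6 was the lowest by each.

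**Figure D4:**
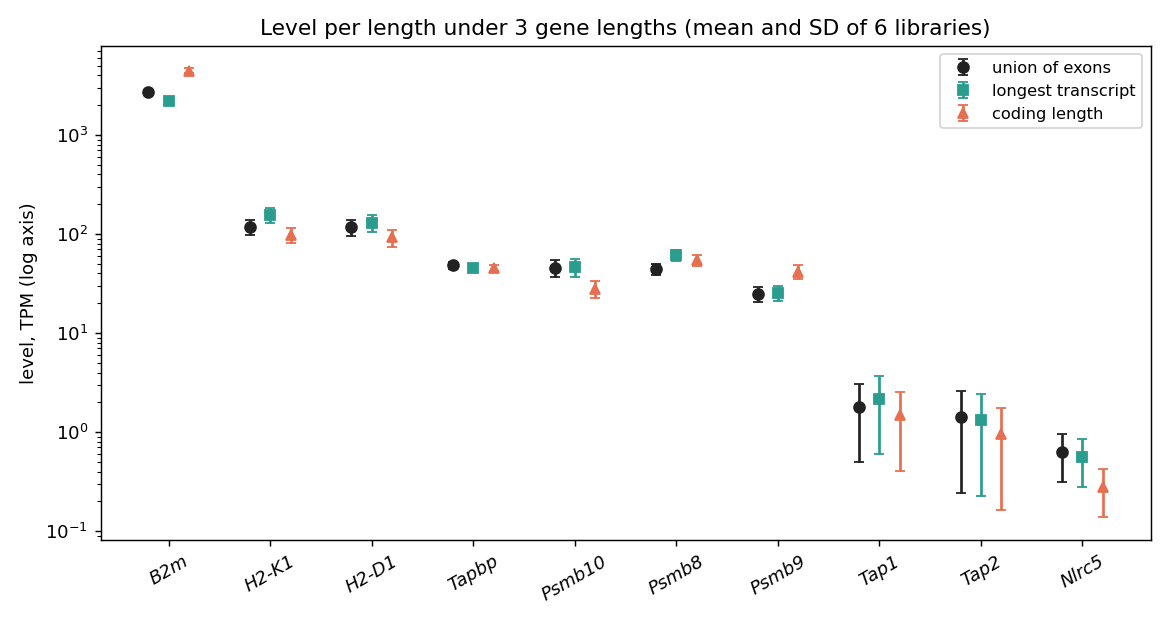
Mean level of each gene in TPM (vertical log axis) over 6 libraries with SD, using the union of exons (circles), the longest transcript (squares) or the coding length of the longest coding transcript (triangles). B2m is highest and Tap1, Tap2 and Nlrc5 are lowest with every length, while the 4 genes between the heavy chains and Tap1 change order.

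Other genes of the pathway were read from 6 lists, and 0 genes of any list passed the edgeR test after adjustment. Of 20 other class I and class I-like chains 9 were tested, with 5 estimates above and 4 below 0 and a median of 0.25 on the log2 scale. In all 9 the groups overlapped (over all tested genes 4.41% lay wholly above and 3.84% wholly below). H2-T23, the Qa-1 chain that presents leader peptides of other class I molecules, had 21.1, 22.7 and 31.1 CPM in 0Q, against 32.1, 39.6 and 24.7 CPM in 100Q (log2 fold change 0.36, SE 0.28). H2-M3, which presents formylated peptides, had 18.4 ± 5.54 and 22.8 ± 1.46 CPM (log2 fold change 0.30, SE 0.32). H2-M2 had the smallest p of the list and the lowest estimate (log2 fold change -0.94, SE 0.64), with 11.2 ± 1.37 and 5.79 ± 4.83 CPM, and its lowest library, 100Q replicate 1, had 2 counts. The H2-M2 estimate was -0.41 without that library and -1.44 without 100Q replicate 2. H2-Q4 and H2-Q7 averaged under 1 CPM in both groups and were not tested.

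All 9 chaperones and peptide editors were tested, with 7 estimates above and 2 below 0 and a median log2 fold change of 0.12. Calr, the calreticulin that holds heavy chains in the loading complex, had 184.9, 174.3 and 160.0 CPM in 0Q, against 193.3, 238.6 and 185.0 CPM in 100Q. The groups were separated only by the step from 184.9 to 185.0 CPM, and the log2 fold change was 0.25 (SE 0.14, 95% interval -0.06 to 0.55). Uggt1, the glucosyltransferase that returns misfolded glycoproteins to calreticulin, was the other of the 2 among these 9 with all 3 libraries of 100Q above 0Q (4.41% over all genes), at 23.2 ± 5.70 and 29.0 ± 3.04 CPM (log2 fold change 0.33, SE 0.29). The lectin chaperone Canx had 245.2 ± 9.53 and 266.3 ± 40.6 CPM, and Bcap31, which escorts class I molecules out of the endoplasmic reticulum, had 300.9 ± 40.4 and 327 ± 35.3 CPM. Pdia3 (ERp57), the disulfide isomerase bound to tapasin, showed a log2 fold change of -0.04 (SE 0.20), and Tapbpl (TAPBPR), a tapasin relative that edits peptides, had 1.81 ± 0.37 and 2.12 ± 0.24 CPM.

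Peptide supply was tested in 15 of 16 genes, with 8 estimates above and 7 below 0 and a median log2 fold change of 0.06. Sec61a1, the channel subunit of the endoplasmic reticulum translocon, had 12.5, 15.6 and 15.3 CPM in 0Q, against 22.4, 30.3 and 28.9 CPM in 100Q. The groups did not overlap, and the log2 fold change was 0.91 (SE 0.30, 95% interval 0.28 to 1.55, edgeR adjusted p = 0.999). It was the 1 of 15 genes with an unadjusted p under 0.05 (1.77% of all genes were so and higher). It was also the 1 of 15 wholly above 0Q (4.41% of all tested genes were). The groups overlapped for Sec61b and Sec61g, the other translocon genes of the list. Psme1 and Psme2 encode the PA28 activator that caps the proteasome. Psme1 had 27.9, 32.3 and 35.6 CPM in 0Q, against 23.2, 21.7 and 27.3 CPM in 100Q (log2 fold change -0.40, SE 0.26). It was the 1 of 15 wholly below 0Q in 100Q (3.84% of all tested genes were). Psme2 had 367.5 ± 30.7 and 335.4 ± 9.22 CPM (log2 fold change -0.13, SE 0.12). Erap1, the aminopeptidase that trims peptides in the endoplasmic reticulum, had 42.7 ± 5.38 and 44.6 ± 7.60 CPM, and Pomp, the proteasome assembly factor, had 723 ± 36.9 and 718.8 ± 69.2 CPM.

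All 14 constitutive 20S proteasome genes were tested, with 5 estimates above and 9 below 0 and a median log2 fold change of -0.05. Psma6, an alpha ring subunit, had 539.8, 466.4 and 546.4 CPM in 0Q, against 442.0, 410.9 and 441.7 CPM in 100Q, without overlap (log2 fold change -0.26, SE 0.12, 95% interval -0.51 to -0.02, edgeR adjusted p = 0.999). It was the 1 of 14 with an unadjusted p under 0.05 (1.16% of all genes were so and lower). It was also the 1 of 14 wholly below 0Q (3.84% of all tested genes were). The most abundant of the list, the alpha subunit Psma2, had 1148 ± 109.1 and 1044 ± 135.5 CPM, and Psma7 had 1122 ± 186.8 and 988.2 ± 109.3 CPM.

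Of 23 transcriptional regulators 22 were tested, with 11 estimates above and 11 below 0 and a median log2 fold change of -0.01. Stat2, which carries type I interferon signals to the nucleus, had 6.80, 7.90 and 6.39 CPM in 0Q, against 12.5, 26.3 and 9.41 CPM in 100Q. The groups did not overlap, the values of 100Q were spread widely, and the log2 fold change was 1.17 (SE 0.44, 95% interval 0.25 to 2.09, edgeR adjusted p = 0.999). Without 100Q replicate 2, its highest library, the estimate was 0.62, and by limma-voom it was 0.77. It was the 1 of 22 with an unadjusted p under 0.05 (1.77% of all genes were so and higher). Of the 22, 2 lay wholly above 0Q in 100Q, Stat2 and Nfya (4.41% of all tested genes did). Nfya had 2, 20 and 7 counts in 0Q and passed the low-count filter with the help of 100Q. The interferon receptor gene Ifngr1 was the 1 wholly below, at 47.4 and 38.1 CPM (3.84% of all tested genes were). Irf1, an interferon-induced activator of class I and immunoproteasome genes, had 14.8 ± 3.97 and 9.49 ± 3.39 CPM (log2 fold change -0.61, SE 0.40), and the groups overlapped. Rfx5, the DNA-binding subunit of the RFX complex on class I promoters, averaged 0.50 and 1.58 CPM and was not tested. Creb1, which binds beside it, had 44.5 ± 10.8 and 33.1 ± 4.25 CPM. Type I interferon response genes, given as a readout of that pathway, summed to 25.6 to 55.9 CPM in 0Q, against 33.5 to 54.4 CPM in 100Q.

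All 10 cross-presentation genes, which serve the loading of outside antigen onto class I, were tested, with 6 estimates above and 4 below 0 and a median log2 fold change of 0.08. Cybb, the oxidase subunit that limits the acidification of phagosomes, had 858.9, 849.3 and 755.6 CPM in 0Q, against 910.2, 979.7 and 911.6 CPM in 100Q (log2 fold change 0.19, SE 0.11). It was the 1 of the 10 wholly above 0Q in 100Q (4.41% of all tested genes were), and 0 were wholly below (3.84%). Batf3, the factor needed by cross-presenting dendritic cells, had 15.6 ± 4.82 and 10.9 ± 3.63 CPM (log2 fold change -0.49, SE 0.39), and the groups overlapped.

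The genes whose profiles over the 6 libraries were most like those of the abundant class I genes were named among 1327 genes at 100 CPM or more, as a description with no test. For H2-K1 they were Mbnl1 (Pearson r of log2 CPM 0.993) and Hspa5 (0.978), for H2-D1 mt-Co1 and Ctsz (0.972 each) and for B2m Ccl3 (0.978) and Ass1 (0.972). These values share libraries and scaling and rest on 6 points.

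The coding sequences of the 10 genes leaned toward C at the wobble position of the codons that queuosine tRNAs read. Codons for asparagine, aspartate, histidine and tyrosine made up 9.03% (Tapbp) to 17.4% (Psmb8) of a coding sequence, with a median of 12.8% against 14.0% over 8976 coding genes with counts in every library and at least 20 such codons. Of these codons, those ending in U (NAU) made up 29.2% in Psmb8, 29.6% in Tap1, 32.9% in Tap2, 33.3% in H2-D1, Tapbp and Psmb10, 35.0% in B2m, 35.7% in H2-K1, 36.4% in Psmb9 and 40.3% in Nlrc5. All 10 were below the median of the 8976 genes, 43.6%, and B2m, H2-K1, Psmb9 and Nlrc5 lay above their lower quartile of 34.7%. As an example, the first 300 coding bases of B2m are printed with these codons in capitals, 5 of them NAU and 11 NAC out of 100 codons.
B2m: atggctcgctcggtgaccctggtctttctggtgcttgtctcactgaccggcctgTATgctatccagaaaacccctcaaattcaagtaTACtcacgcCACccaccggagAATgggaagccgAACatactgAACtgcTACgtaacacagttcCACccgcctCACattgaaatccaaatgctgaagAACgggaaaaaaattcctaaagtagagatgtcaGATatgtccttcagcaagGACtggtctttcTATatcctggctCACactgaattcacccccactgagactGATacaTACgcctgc
In the whole B2m coding sequence 20 of 119 codons were of this kind, 7 NAU and 13 NAC. Nlrc5 had the most in number, 221 of 1915 codons. The shares describe the genes and not the libraries, and their relation to the fold changes was not tested.

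**Figure D5:**
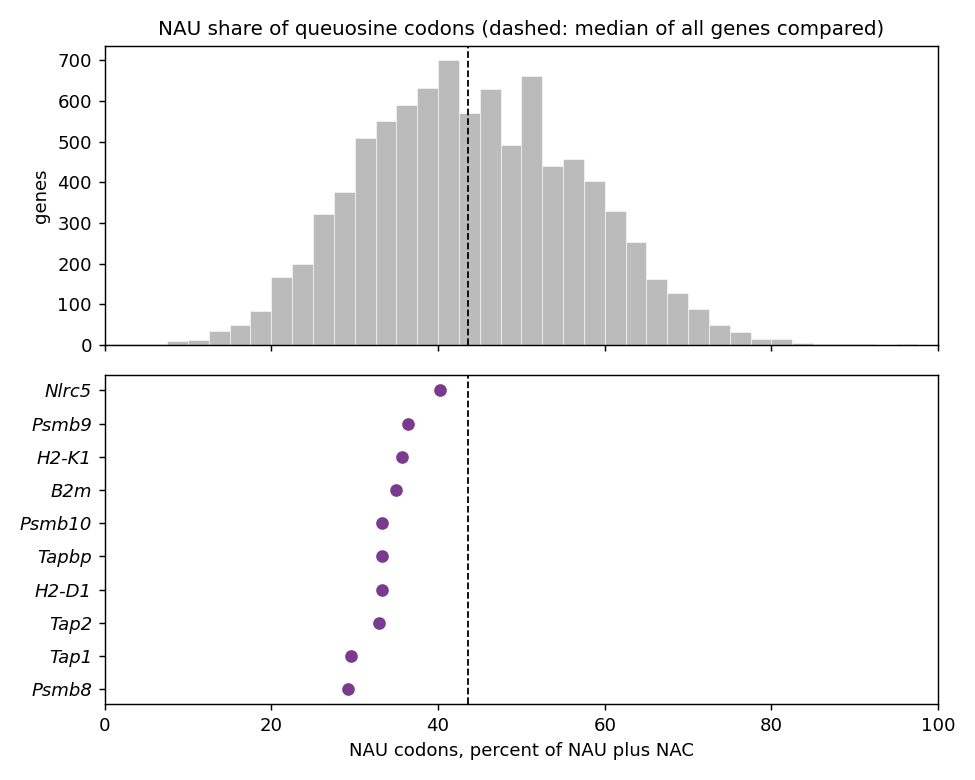
Share of NAU among NAU plus NAC codons (horizontal axis, percent) for 8976 genes as a histogram of gene counts (upper panel) and for each of the 10 class I genes (lower panel), with the median of all genes dashed. All 10 genes lie left of the median of 43.6%, from 29.2% in Psmb8 to 40.3% in Nlrc5.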

How the data were processed

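Expected counts of the 6 libraries were deposited by the authors in a table, one value for each gene, not normalized. The tools named in the submitters' processing notes are FastQC, STAR (alignment) and RSEM (quantification), and the build is mm39 (GRCm39). Their versions, the annotation and the strandedness are not stated there. RSEM divides ambiguous reads by estimation, and 5.51% to 10.5% of values in a library were not whole. Symbols and sequences came from GENCODE mouse release 39 on GRCm39, and 502 of 57132 identifiers had no symbol.

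Expected counts were rounded and tested with edgeR 4.0.16 in R 4.3.3 (filterByExpr, TMM, robust glmQLFit, glmQLFTest, Benjamini-Hochberg adjustment over all 10554 genes, threshold 0.05), and the steps were tested on simulated data. The standard error of a log2 fold change is its size over the square root of F. CPM values are scaled by TMM, and TPM values were computed from the counts with 3 kinds of gene length. Alternatives were DESeq2 1.42.0, limma-voom (limma 3.58.1), other scalings, filters, thinning of the deepest library, a replicate block and leaving out each library.

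The 10 genes and the lists were chosen with earlier results of these data known. Named were all 10 genes, their constitutive counterparts, the most abundant and the 2 genes of smallest p in each pathway list, and a set of 14 further genes, not all of which are reported here. Reads without molecular identifiers are not independent molecules, so limits from counts cover counting error only.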

Additional observations from a re-analysis of the deposited data

How the results depend on the processing

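The settings were planned, except the removal of each library's length trend, which was chosen after the data were seen. Over all genes the number past the threshold, 0 as reported, was 2 without 0Q replicate 1 and 1 without 0Q replicate 2, a range of 0 to 2 over omitted libraries, and 0 in the other settings run. The cause was not tested. The count of class I genes past it was 0 in all settings run. Their median log2 fold change of 0.02 ranged from -0.03 to 0.07 over omitted libraries and from 0.01 to 0.05 in the others. With the replicate number as a replicate block, 0 genes passed and the median was 0.02. Deviations of libraries with the same number were correlated at 0.03, 0.08 and -0.01, so the numbers were not shown to pair the samples. Unadjusted p-values under 0.05 numbered 309 by edgeR, 310 by limma-voom and 544 by DESeq2 on unfiltered counts, with 0 genes called by each. Estimates of the 10 genes changed sign in 8 of 60 values over omitted libraries, in 0 of 10 under the block and in 2 of 87 others. Over omitted libraries the log2 ratio differences ranged from -0.52 to -0.24 (Psmb10 to Psmb7), from -0.32 to -0.07 (Psmb9 to Psmb6) and from -0.32 to -0.01 (Psmb8 to Psmb5). In the exact test the smallest p was 0.1, so it shows nothing on stability. Tap1, Tap2 and Nlrc5 were the least counted, each with 200 counts or fewer over the 6 libraries. Tap2 also varied the most within each group relative to its mean.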
